A study of Mus musculus with 2 samples.

Results

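The Prss genes encode trypsin-like serine proteases and close relatives, and their messenger RNAs were followed here through the cell types of the mouse testis. Members were all genes whose symbol is Prss followed by a number, without pseudogenes, that were listed in both deposited count matrices: 36 of 33842 shared genes (39232 in either matrix). One member by this rule, Prss23os, is an antisense RNA and not a protease. The symbols Prss22 and Prss29 each had 1 count and were listed in 1 matrix only, so they were not members. Testes came from a diet study on C57 BL/6 males, 20 in number, that arrived at 5 weeks of age, adapted for 1 week and then spent 12 weeks, 10 mice per diet, on maintenance feed or on feed that supplied 60% of kcal from fat. Of 2 single-cell libraries, 1 is labelled as high-fat. The label of the other gives the tissue alone and no diet, and it is called the tissue-labelled library here. The labels do not say how many mice each holds. With no replicates there was no test, and "higher" or "lower" compares these 2 libraries and not the diets.

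Trypsin-like proteases cut proteins after lysine or arginine with a catalytic histidine, aspartate and serine, and most are made as inactive precursors. The testis holds many of them. Some are stored in the acrosome, the secretory vesicle of the sperm head, some are tied to the germ cell surface by a glycosylphosphatidylinositol (GPI) lipid anchor, and a few have lost a catalytic residue. Knockouts of Prss37 and of Prss55 leave mouse sperm unable to pass from the uterus into the oviduct, with loss of the mature sperm surface protein ADAM3.

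Levels are given as CPM, the counts of a gene's unique molecular identifiers (UMIs) per 1000000 UMIs of the class, with 95% exact Poisson intervals in parentheses that cover counting error only. Where 2 values follow each other without a library name, the tissue-labelled library comes first. UMIs are not scaled to gene length, so levels are compared across classes within a gene and not between genes. The libraries held 207667609 and 201842085 UMIs in 13805 and 12661 barcodes, of which 13286 and 12196 cells were kept. Cells were clustered without the family's own genes, and 1507 barcode names, which are numbers and not sequences, occurred in both libraries.

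The labels call the cells germ cells, but somatic classes were present too. Of 63 germ cell markers, 44 and 46 were highest in the class they mark, such as Prdm9 in leptotene and zygotene spermatocytes (167 and 121 CPM) and Prm1 in elongating spermatids (64358 and 64288 CPM), and all 10 Sertoli markers were, such as Sox9 (55.5 and 84.3 CPM). The round spermatid stages were the least sharply marked: 1 and 4 of 5 middle round markers and 2 and 1 of 5 late round markers led their own class. Acrv1, a middle round marker, was highest in late round spermatids in both libraries, and the late round markers Tssk3, Tssk6 and Spata3 in elongating ones. In both libraries Gfra1 and Id4, markers of undifferentiated spermatogonia, were highest in middle round spermatids and in pachytene spermatocytes, Dmrtb1, of differentiating ones, near the divisions, and Cdc25c, a marker of the divisions, in spermatogonia. All names stand for "like" and rest on markers. From pachytene to late round spermatids most cells of a class came from different clusters in the 2 libraries (pachytene 11 and 14 against 13, near the meiotic divisions 0 against 1, early round 2 against 12, middle round 5 against 7 and 10, late round 4 against 15). Levels by fine stage are therefore shown side by side, and ratios between libraries were taken over broader classes. Those classes still differed in stage mix: round spermatids were 2147 early, 1711 middle and 1951 late cells in the tissue-labelled library and 914, 2285 and 653 in the high-fat library. UMIs of germ cell members were also seen in somatic cells, as free RNA in droplets can give. The 23 members other than Prss23 and Prss35 had a median level in Sertoli cells, which are not germ cells, of 66.6% and 64.2% of their level over all cells kept. The values ran from 0% to 148.5% and from 44.3% to 324.8%, with 2 and 4 members at or above 100%. Prss36 was among these in both libraries (137% and 325%), so its Sertoli level cannot mark background. The same held in 1 library for Prss41 (148%, tissue-labelled library) and for Prss51, Prss53 and Prss55 (101%, 125% and 100%, high-fat library). Elsewhere a germ cell level at or below that in Sertoli cells is not told apart from background. Background concerns the shallow classes most. Median depths were 2288 and 2438 UMIs in spermatogonia and 1357 and 1548 in Sertoli cells, against 15781 and 19358 in spermatocytes near the divisions. At equal CPM a deeper cell holds more UMIs, so a level below that of Sertoli cells is not shown to be background.

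Promoter sequence was available for 26 of the 36 members, as the 250 bases before a RefSeq gene start (build GRCm38.p6), and 4 are shown. Prss39 (chr1:34498162-34498411, plus strand) and Prss40 (chr1:34560944-34561193, minus strand), which lie near each other beside Cfc1, had the most similar promoters of 325 pairs of members. Their best alignment held 86 identical bases of 95 aligned (score 95), and the next pair scored 28. Capitals mark every run of at least 12 bases found in both in the same orientation, 43 bases in 3 runs, the longest of 19.
Prss39: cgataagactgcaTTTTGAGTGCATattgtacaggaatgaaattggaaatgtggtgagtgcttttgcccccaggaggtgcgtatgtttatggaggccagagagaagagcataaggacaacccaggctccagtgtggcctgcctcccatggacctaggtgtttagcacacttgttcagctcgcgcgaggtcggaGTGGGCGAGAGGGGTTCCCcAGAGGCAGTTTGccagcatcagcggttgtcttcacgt
Prss40: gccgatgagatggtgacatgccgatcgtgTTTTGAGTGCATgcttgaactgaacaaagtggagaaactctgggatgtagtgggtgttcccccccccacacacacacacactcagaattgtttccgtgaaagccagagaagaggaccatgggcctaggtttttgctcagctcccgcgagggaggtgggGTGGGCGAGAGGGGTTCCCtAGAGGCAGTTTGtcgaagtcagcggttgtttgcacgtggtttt
Prss50 (chr9:110857714-110857963, plus strand) is shown because its messenger was found mostly in early germ cells, and Prss46 (chr9:110844256-110844505, plus strand) because it differed in stage from the gene before it. Capitals mark in Prss50 a match, 164 bases before the start, to CNCCTCAG, the element bound by the meiotic regulator STRA8. In Prss46 they mark a match, 116 bases before the start, to GTTGCC, which is the half-site of RFX factors.
Prss50: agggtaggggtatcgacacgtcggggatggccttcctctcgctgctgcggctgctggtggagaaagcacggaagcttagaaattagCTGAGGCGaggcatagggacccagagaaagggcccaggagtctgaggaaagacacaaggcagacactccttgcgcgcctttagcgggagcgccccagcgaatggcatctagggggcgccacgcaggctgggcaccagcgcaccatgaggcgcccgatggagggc
Prss46: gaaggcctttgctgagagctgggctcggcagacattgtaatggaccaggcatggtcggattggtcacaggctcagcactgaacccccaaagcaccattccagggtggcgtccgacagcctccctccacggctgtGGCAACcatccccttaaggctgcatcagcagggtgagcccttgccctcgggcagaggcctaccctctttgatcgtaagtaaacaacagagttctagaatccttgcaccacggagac
Both strands were searched, so a motif can stand as its reverse complement. CNCCTCAG occurred in 6.417% of all 32851 promoters of that length and, among the 18 members with a promoter and enough counts, in Prss38, Prss47 and Prss50. GTTGCC occurred in 10.43% of all promoters and in Prss21, Prss46 and Prss47. The CRE half-site TGACG (17.77% of all) occurred in Prss23, Prss35 and Prss38, the full CRE TGACGTCA, which contains it (1.546% of all), in no member, and the MYB element CAACTG (11.14% of all) in Prss23. These are letter matches and not measured binding.

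Of the 36 members, 25 had at least 50 counts in each library. Most were highest in meiotic or spermatid classes. In the tissue-labelled library 13 of the 25 were highest in a spermatocyte class, against 37.6% of 19971 genes with as many counts, 9 in a spermatid class (27.7%), 1 in spermatogonia (17.6%) and 2 in somatic cells (17.1%). In the high-fat library the counts were 12 (38.2%), 10 (28.1%), 1 (15.9%) and 2 (17.8%). The highest of the 10 classes was the same in both libraries for 19 of the 25 (76%), against 66.0% of all genes tested. Nothing in these counts is read as particular to the family.

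**Figure D1:**
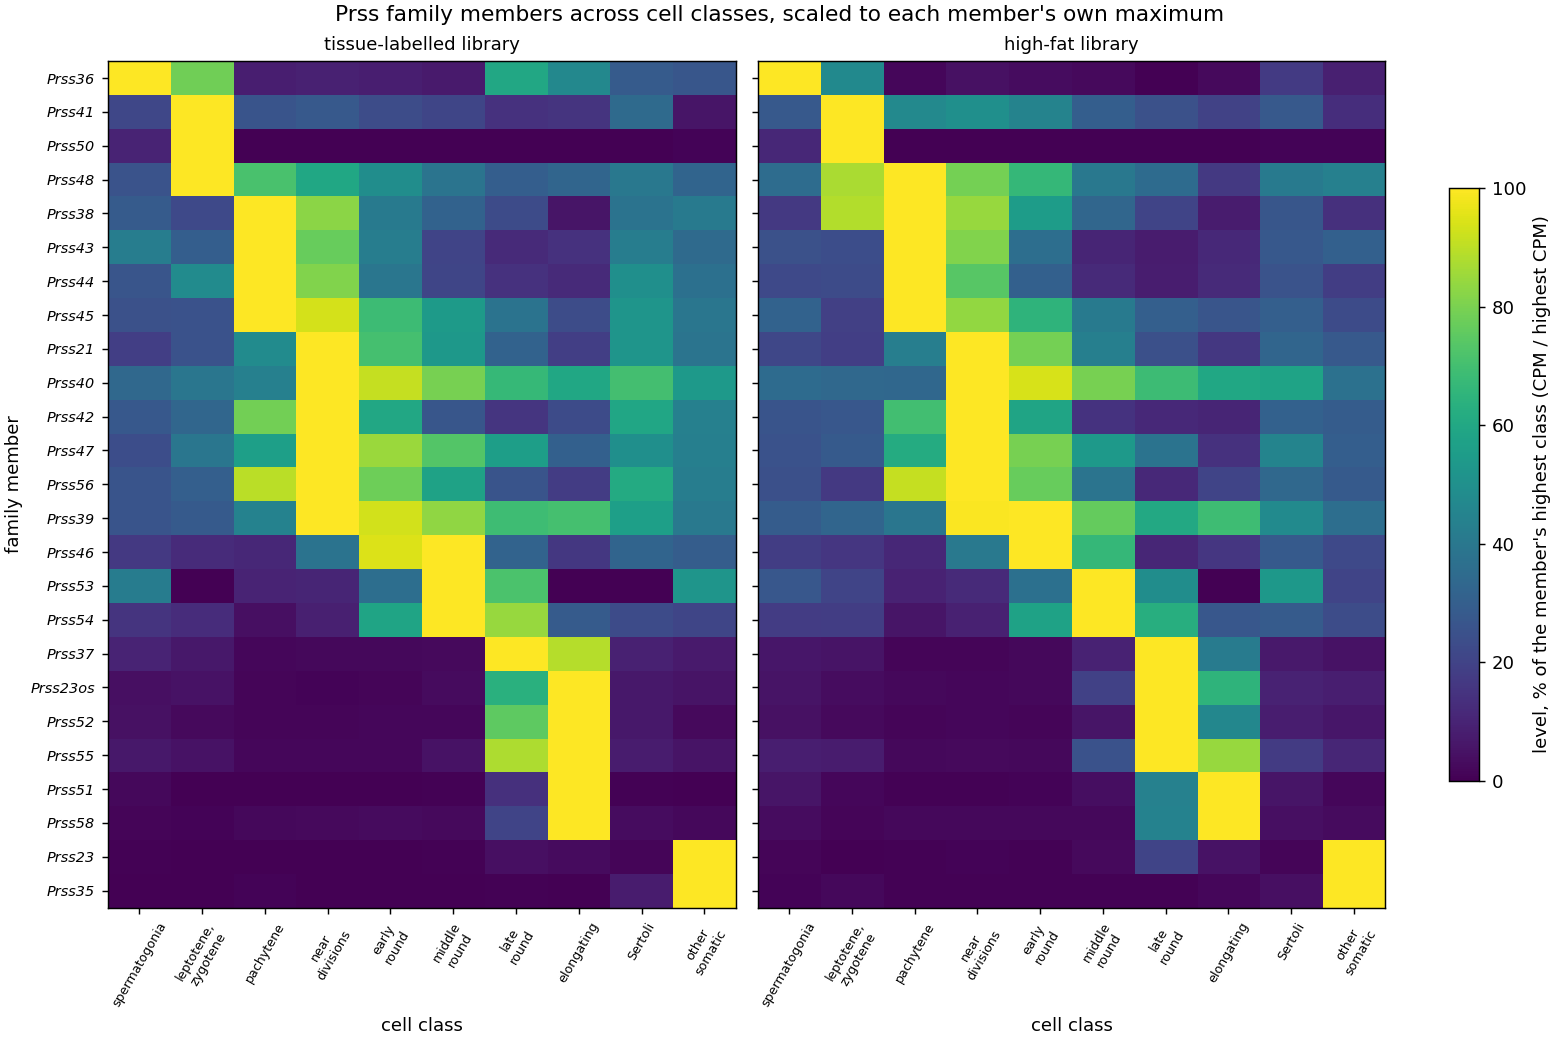
Level of each of the 25 members (rows, ordered by the class of their maximum) in 10 cell classes (columns), in % of the member's own highest CPM, for the tissue-labelled library (left) and the high-fat library (right). The maxima run from spermatogonia (Prss36) through meiosis to elongating spermatids (Prss51, Prss58), with Prss23 and Prss35 at the end in other somatic cells.

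Set against Sertoli cells, the stages separated into a few groups of members. The interval in spermatogonia lay wholly above that in Sertoli cells for 2 of 25 members in both libraries, Prss36 and Prss50. In leptotene and zygotene spermatocytes 2 members passed in both, Prss41 and Prss50. In pachytene spermatocytes 7 did (Prss38, Prss42, Prss43, Prss44, Prss45, Prss48 and Prss56), and near the meiotic divisions 11, without Prss48 and with Prss21, Prss39, Prss40, Prss46 and Prss47. Early round spermatids had 8, middle round spermatids 3, late round spermatids 8 and elongating spermatids 7. The last of these sets was Prss23os, Prss37, Prss39, Prss51, Prss52, Prss55 and Prss58. All members together gave 840 and 957 CPM in spermatogonia and 2378 and 2437 CPM near the meiotic divisions. The same sum was 1518 and 1330 CPM in Sertoli cells, so the sum in spermatogonia lay below it.

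Prss50, also called TSP50, has threonine in place of the catalytic serine and was concentrated in early germ cells. In leptotene and zygotene spermatocytes it reached 697 CPM (631 to 769) in the tissue-labelled library and 523 CPM (486 to 562) in the high-fat library. Spermatogonia had 69.4 CPM (59.5 to 80.4) and 58.5 CPM (50.4 to 67.6). From pachytene on it was nearly gone, with 0.565 and 1.24 CPM in pachytene spermatocytes, below its Sertoli level of 1.05 and 4.44 CPM, and 0 and 1 counts in elongating spermatids. Of its 406 and 736 counts in leptotene and zygotene cells, the ratio of high-fat to the other library was 0.749 (0.663 to 0.848). Markers of this class also differed between the libraries, in both directions: Dmc1 had 345 and 219 CPM and Hormad1 210 and 299 CPM. Whether the mix of cells within the class differed was not tested.

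Prss41 and Prss48 also began early. Prss41, a GPI-anchored protease of the germ cell surface, had its highest level in leptotene and zygotene spermatocytes at 25.8 CPM (14.4 to 42.5) and 38.3 CPM (28.8 to 50.03), from 15 and 54 counts. It stayed at 6.71 and 18 CPM in pachytene and 7.22 and 19.1 CPM near the divisions, where only the high-fat values exceeded those of its Sertoli cells (8.89 and 10.7 CPM). Prss41 lies opposite Prss32 on the other strand, and whether the counting used strand is not stated, so reads of the pair may be mixed. Prss32 itself had only 11 and 7 counts. Prss48 was at 27.5 CPM (15.7 to 44.6) and 24.1 CPM (16.7 to 33.7) in leptotene and zygotene and at 19.5 CPM (18 to 21.1) and 27.7 CPM (25.7 to 29.7) in pachytene spermatocytes, classes whose intervals overlapped in both libraries. Its level was lower at later stages, with 8.22 and 9.69 CPM in late round spermatids. Prss38 was highest in pachytene spermatocytes at 23.3 CPM (21.7 to 25) and 15.2 CPM (13.8 to 16.8), and near the divisions it stood at 19.3 and 12.9 CPM.

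Prss42, Prss44, Prss43, Prss45, Prss46 and Prss50 lie next to each other in this order on one strand of chromosome 9, by the GENCODE annotation. They and Prss41 are taken here as the testis-specific serine protease (TESSP) group, and Prss42 and Prss43 have been linked to the progress of meiosis in mouse spermatocytes. The neighbours did not all share a stage. Prss43 was highest in pachytene spermatocytes, 126 CPM (122 to 129.9) and 136 CPM (132 to 141), as was Prss44, 53.5 CPM (51 to 56.1) and 58.8 CPM (56 to 61.8), and Prss45, 116 CPM (112 to 119.5) and 135 CPM (131 to 139.6). Prss42 was highest near the meiotic divisions at 155 CPM (152 to 159) and 139 CPM (136 to 142), with 123 and 96.7 CPM in pachytene. In late round spermatids these 4 were lower. Prss42 had 23.7 and 15.9 CPM, Prss43 15.2 and 10.4 CPM and Prss44 7.58 and 4.81 CPM. Prss45 had 44 and 40.8 CPM.

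Prss46 came later than its neighbours. It had 43.2 and 42 CPM in pachytene spermatocytes, below its Sertoli level of 127 and 109 CPM, and 149.6 and 156 CPM near the divisions. Early round spermatids had 372 CPM (366 to 378) and 383 CPM (375 to 392) and middle round spermatids 393 CPM (386 to 400.2) and 255 CPM (250.5 to 259). The top stage thus differed by library, middle round in one and early round in the other, and in late round spermatids the levels were 125 and 41.1 CPM. Over the 8 germ stages the profiles of Prss43 and Prss44 had a Pearson r of 0.94 and 0.99 (log2 of CPM plus 1), those of Prss42 and Prss43 0.91 and 0.96, those of Prss45 and Prss46 0.37 and 0.33, and those of Prss46 and Prss50 -0.45 and -0.25. These r describe 8 stages that share a library and its depth.

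**Figure D2:**
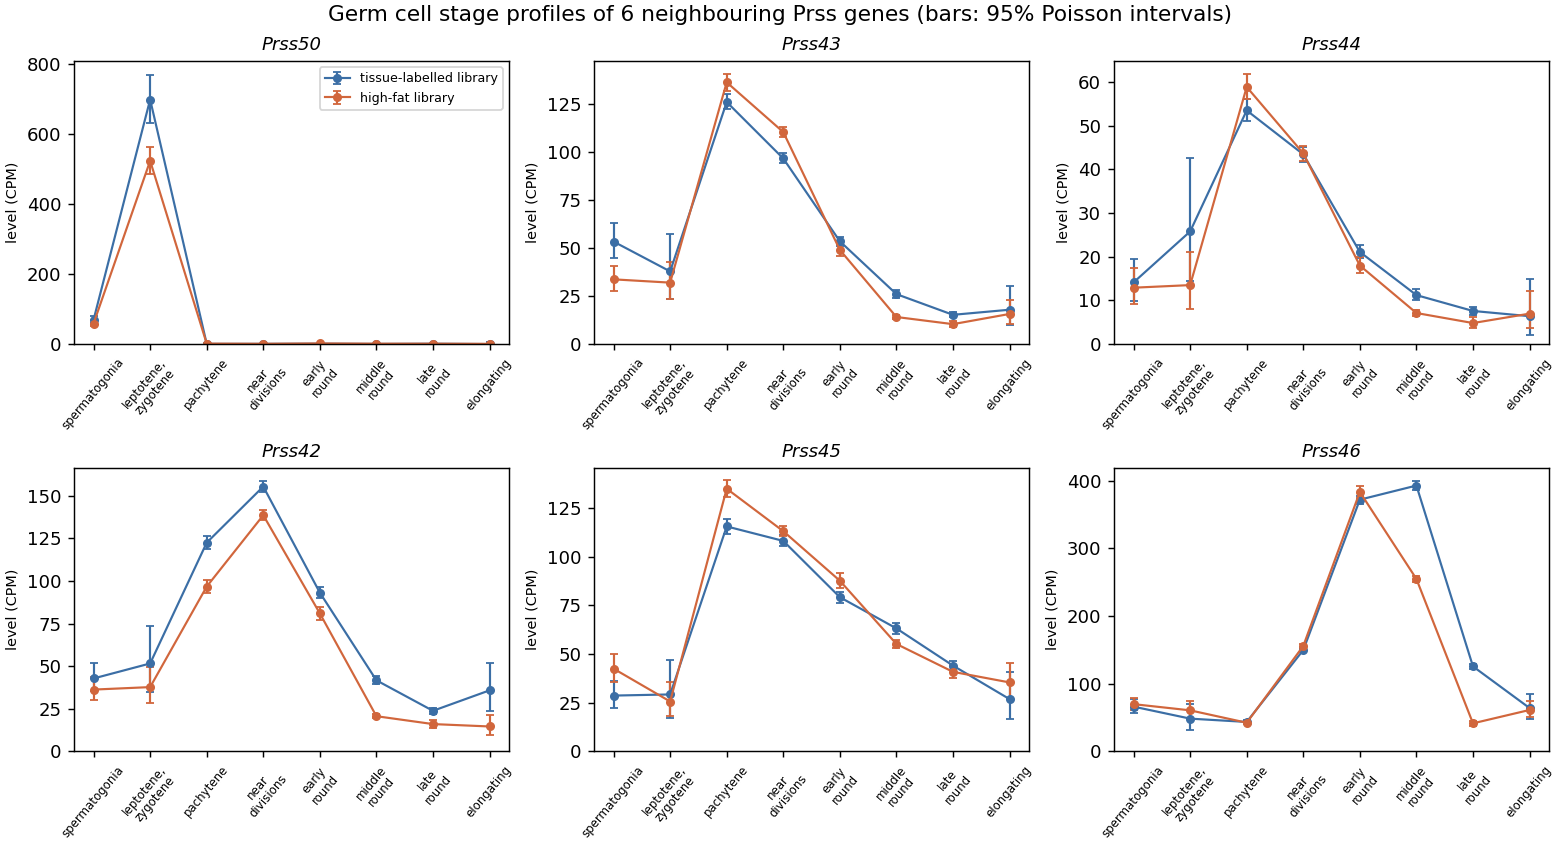
CPM (y axis, linear from 0, own scale per panel) of 6 neighbouring genes over 8 germ cell stages (x axis), with 95% Poisson intervals, in the tissue-labelled library (blue) and the high-fat library (orange). Prss50 stands out in leptotene and zygotene cells, Prss43, Prss44 and Prss45 in pachytene, Prss42 near the divisions and Prss46 in early and middle round spermatids.

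The acrosomal and sperm surface members Prss21, Prss39 and Prss40 had their own highest levels near the meiotic divisions or in early round spermatids. Prss21, or testisin, a GPI-anchored protease of the sperm surface, reached 401 CPM (395 to 406) and 493 CPM (487 to 498) near the divisions and stood at 194 and 210.2 CPM in pachytene spermatocytes and 126 and 119.8 CPM in late round spermatids. In pachytene its interval lay wholly above that of Sertoli cells in the high-fat library alone, and in late round spermatids in neither. Prss39 and Prss40 were first described as the acrosomal proteases TESP1 and TESP2. Prss39 kept levels above those of Sertoli cells through the spermatid stages in both libraries. Prss39 had 959 CPM (951 to 967) and 869 CPM (862 to 877) near the divisions and 895 CPM (886 to 905) and 874 CPM (862 to 887) in early round spermatids. In the high-fat library these 2 intervals overlapped, and early round spermatids ranked first by a small margin. Prss39 was still at 676 and 603 CPM in elongating spermatids.

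Prss40 had 101 CPM (98.1 to 103) and 128 CPM (126 to 131) near the divisions, 91.7 and 121 CPM in early round and 67.5 and 87.8 CPM in late round spermatids. Near the divisions and in early round spermatids its interval lay wholly above that of Sertoli cells in both libraries. In middle round spermatids it did so in the high-fat library alone, and in late round and elongating spermatids in neither. The profiles of Prss39 and Prss40, whose promoters are printed above, had an r of 0.97 in each library over the 8 stages. Prss56, a secreted protease known for its part in eye growth, was highest near the divisions at 199 CPM (195 to 203) and 212 CPM (208 to 215) and nearly as high in pachytene at 179 CPM (174 to 183) and 193 CPM (188 to 198). Late round spermatids had 51.6 and 24.4 CPM. Prss47 was highest near the divisions too, at 74.7 CPM (72.5 to 77.1) and 40.2 CPM (38.7 to 41.8).

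Prss54 was highest in middle round spermatids in both libraries. It had 12 and 28.8 CPM in pachytene, 26.2 and 48.8 CPM near the divisions, 173 and 301 CPM in early round, 298 CPM (291 to 304) and 521 CPM (515 to 527) in middle round and 251.3 and 327 CPM in late round spermatids. Its elongating spermatids had 85.5 and 142 CPM. Prss53, which codes for a protease with several catalytic domains, was also highest in middle round spermatids but sparse, with 2.81 CPM (2.23 to 3.49) and 3.48 CPM (2.99 to 4.02) from 81 and 184 counts. In the reference transcripts 74.45% of its stretches of 50 bases also occur in the overlapping gene model Gm21974, so its counts are uncertain.

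A late group of 6 members was low until middle round spermatids and high in late round and elongating spermatids. Prss37, a relative without an intact catalytic triad, went from 3.3 and 29.9 CPM in middle round to 132 CPM (128 to 136) and 313 CPM (304 to 323) in late round spermatids, with 117 CPM (94.6 to 144) and 129.9 CPM (113 to 148) in elongating ones. Prss55, a GPI-anchored protease, had 21.2 and 122 CPM in middle round, 380.1 CPM (373 to 387) and 486 CPM (474 to 498) in late round and 434 CPM (389 to 482) and 411 CPM (382 to 443) in elongating spermatids. In the high-fat library the middle round class included cluster 7, whose second-best marker class was late round spermatids, and there the middle round levels of Prss37, Prss55 and Prss23os were above those in the other library.

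Prss52 had 108 CPM (105 to 112) and 197 CPM (189 to 204) in late round and 144 CPM (119 to 173) and 91.1 CPM (77.4 to 106) in elongating spermatids, so the later class was higher in the tissue-labelled library and lower in the other. Prss23os followed the same order, with 89 and 135 CPM and then 140.3 CPM (115 to 169) and 87.6 CPM (74.2 to 103). Prss51 and Prss58 were highest in elongating spermatids in both libraries: Prss51 at 103 CPM (82.1 to 128) and 88.8 CPM (75.2 to 104) after 14.3 and 39.1 CPM in late round spermatids. Prss58 had 163 CPM (136 to 194) and 201 CPM (180.1 to 223) after 33.3 and 88.8 CPM. Prss51, Prss52 and Prss55 are neighbours, and Prss51 overlaps Prss55 on the other strand, so that unstranded counting could mix them. Prss23os likewise overlaps Prss23, and in late round spermatids Prss23 itself had 5.22 and 10.1 CPM. The elongating class was small, 148 and 227 cells, and Sertoli markers were raised in its cluster as well.

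Prss36, which codes for another protease with several catalytic domains, was the 1 member highest in spermatogonia, with 11 CPM (7.29 to 15.9) in the tissue-labelled library and 23.9 CPM (18.8 to 29.9) in the high-fat library. Sertoli cells had 3.14 and 4.07 CPM. The libraries also differed at the other end of the lineage. In late round spermatids Prss36 had 215 counts, or 6.57 CPM (5.72 to 7.51), in the tissue-labelled library, and 1 count, or 0.074 CPM (0.00187 to 0.412), in the high-fat library. A UMI was seen in 185 of 1951 cells (9.48%, 8.22 to 10.9) and in 1 of 653 cells (0.153%, 0.00388 to 0.85), with no cell above 4 counts. After thinning to 1000 UMIs the shares were 0.769% (0.431 to 1.26) and 0% (0 to 0.563), against 0.654% (0.213 to 1.52) and 0.323% (0.088 to 0.825) of Sertoli cells. This stage was singled out after its values had been seen. Early and middle round spermatids had 0.937 and 0.804 CPM and 0.798 and 0.605 CPM, with shares of 1.68% and 1.64% of early round spermatids.

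Prss23 and Prss35, secreted relatives best known from the ovary, were the members of the somatic cells. Over all somatic classes other than Sertoli cells Prss23 had 126 CPM (107 to 146) and 48.8 CPM (38 to 61.8) and Prss35 20.6 CPM (13.7 to 29.7) and 35.4 CPM (26.3 to 46.6), against 1.57 and 0.739 CPM and 1.57 and 1.48 CPM in Sertoli cells. Endothelial cells had the most counts of Prss23, 121 and 46, and 207 CPM (172 to 247) and 166 CPM (122 to 222). Peritubular myoid cells, 27 and 11 in number, had 192 CPM (107 to 316) and 135 CPM (43.7 to 314), and interstitial stroma 77.6 CPM (54.1 to 108) and 32.5 CPM (19.3 to 51.4). No UMI of Prss23 was seen in 21 and 32 Leydig cells or in 53 and 194 immune cells, which allows shares of cells with a UMI of up to 14.3% and 9.38%, and of up to 5.66% and 1.55%.

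Stroma held most counts of Prss35 in the somatic classes measured, at 57.7 CPM (37.7 to 84.5) and 88.6 CPM (65.5 to 117) from 26 and 49 counts. Leydig cells had 2 and 1 counts, and endothelial, myoid and immune cells had 0, which in endothelial cells allows shares of up to 3.16% and 6.67%. The ratio of the high-fat library to the other for all these classes together was 0.389 (0.29 to 0.517) for Prss23 and 1.72 (1.06 to 2.84) for Prss35. Endothelial cells numbered 95 and 45 and immune cells 53 and 194, so the mix of these classes differed between the libraries. For Prss23 the ratio within endothelial cells was 0.802 (0.559 to 1.14) and within stroma 0.419 (0.224 to 0.761). After thinning each cell to 1000 UMIs, a UMI of Prss23 was seen in 9.63% (6.76 to 13.2) and 3.15% (1.77 to 5.14) of these cells, against 0.261% (0.0317 to 0.941) and 0.161% (0.0196 to 0.582) of Sertoli cells. For Prss35 the shares were 3.4% (1.77 to 5.86) and 3.99% (2.42 to 6.16), against 0.261% and 0.242% of Sertoli cells unthinned. Median depths were 1936 and 2223 UMIs, and 1357 and 1548 in Sertoli cells.

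**Figure D3:**
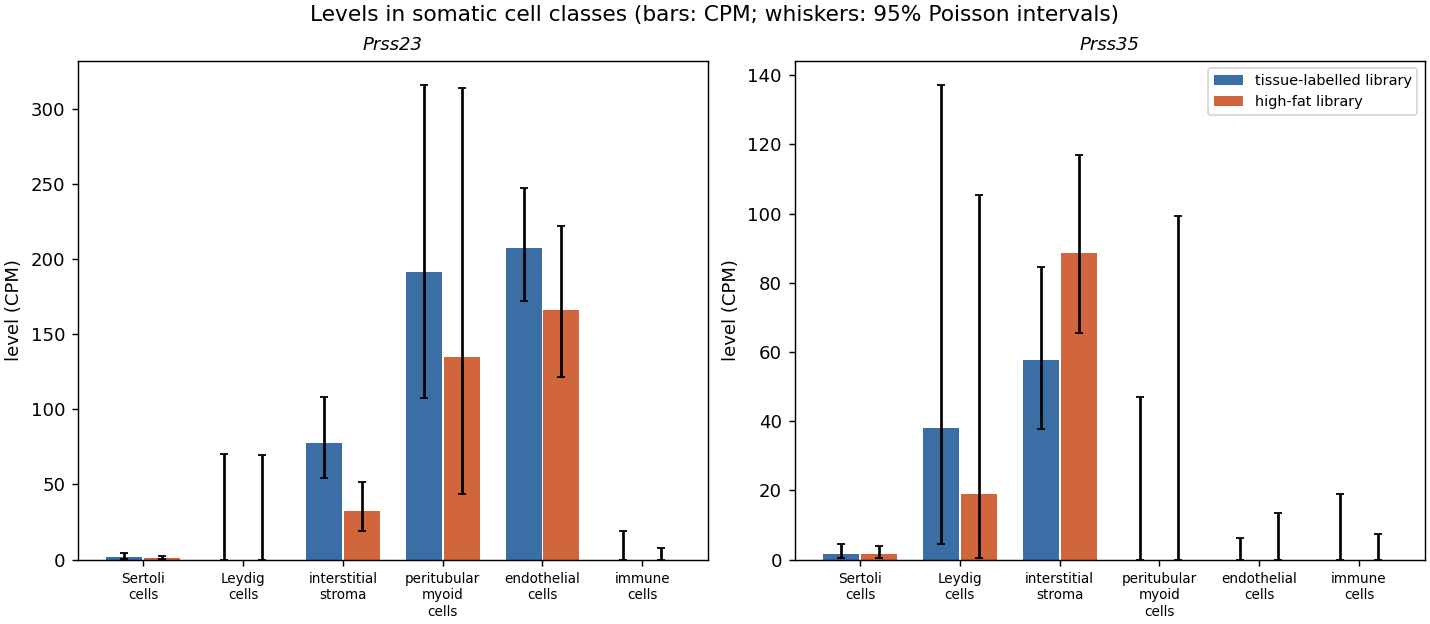
CPM of Prss23 (left) and Prss35 (right) in 6 somatic classes (x axis) as bars from 0, with 95% Poisson intervals as whiskers, in the tissue-labelled library (blue) and the high-fat library (orange). Prss23 is found in endothelial, peritubular myoid and stromal cells, and Prss35 in stroma, with a few counts in Leydig cells.

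The other 11 members had too few counts for a stage. Prss57, a neutrophil protease, had 34 and 46 counts over all cells kept, Prss2, a trypsin with near copies in the genome, 32 and 26, and Prss12, the neural protease neurotrypsin, 29 and 33. Prss16, a thymus protease, had 19 and 12, Prss8, or prostasin, an epithelial protease, 7 and 14, and Prss27 5 and 7. Prss32 is given above, and Prss33 had 4 and 11, Prss34 3 and 3, and Prss28, a protease of the uterus at implantation, 4 and 1. Prss30 had 45 counts in the tissue-labelled library and 2 in the high-fat library. In spermatocytes these were 25 and 0. Set against a floor of 3 counts over the high-fat class, the tissue-labelled level was 8.55-fold higher, a value that leaves out the counting error of the 25.

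Genes that act with these proteases were followed from lists. All 9 genes of the acrosin list had enough counts, 4 highest in a spermatocyte class, 4 in a spermatid class and 1 in somatic cells, in each library. Acr, the precursor of the main acrosomal protease, had 439 and 386 CPM near the divisions and 449.7 and 412 CPM in early round spermatids, and Acrbp, its binding protein, 1211 and 1168 CPM and 1114 and 1083 CPM. Spink2, an inhibitor that guards against early activation, had 3587 and 3722 CPM near the divisions. Serpina5, a secreted inhibitor, was the somatic one, with 73.8 and 102 CPM in Sertoli cells.

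All 14 genes of ADAM3 maturation and the sperm surface had enough counts as well, 6 highest in spermatocyte classes, 7 in spermatid classes and 1 in somatic cells in each library. Adam3 had 963 and 749 CPM near the divisions and 977 and 759 CPM in early round spermatids, stages at which Prss37 and Prss55 were low. Calr3 and Pmis2, which are needed for ADAM3 on sperm, shared that late stage, with 185 and 328 CPM and 499 and 531 CPM in late round spermatids after 5.46 and 5.44 CPM and 62.1 and 58.1 CPM in early round ones. Tex101 and Ly6k, GPI-anchored surface proteins, were highest in leptotene and zygotene cells, the stage of Prss50, with 1127 and 1263 CPM and 1202 and 1035 CPM. Of 3 genes for GPI anchoring, 1 was highest in spermatogonia and 2 in spermatocyte classes: Pigk and Gpaa1, of the transamidase that attaches the anchor, had 91 and 90.2 CPM and 112 and 60.4 CPM in leptotene and zygotene cells.

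Few members lay 2-fold or more apart between the libraries in any germ class. In the 5 germ classes 16 to 28 members had at least 20 counts over both libraries. In spermatogonia 4 of 23 were at least 2-fold higher in the high-fat library and 1 at least 2-fold lower, against 8.91% and 6.16% of all genes tested. In leptotene and zygotene spermatocytes 2 and 1 of 18 were (10.3% and 4.43% of all genes), and in later spermatocytes 2 and 1 of 28 (11.8% and 7.97%). In round spermatids 2 and 2 of 26 were (11.7% and 9.42%), and in elongating spermatids 0 and 2 of 16 (9.54% and 5.53%). The median log2 ratio of the members was 0.40, -0.04, 0.23, 0.19 and -0.07 in the same order, where that of all genes was 0.02, 0.02, 0.08, 0.05 and 0.02. Apart from Prss30, which had no count in 1 library, there were 16 ratios past 2-fold. In 10 of them both libraries were at or below their own Sertoli level, and in 4 more 1 library was. The 10 included Prss36 in round spermatids, whose Sertoli level cannot mark background. The 4 included both ratios of Prss41 and that of Prss51 in spermatogonia. There the Sertoli level was 148% (Prss41, tissue-labelled library) and 101% (Prss51, high-fat library) of the level over all cells kept. The remaining 2 of the 16 were Prss36 in spermatogonia and Prss47 in round spermatids. The stage mix of round spermatids also entered: for 7 of 23 members measured in all 3 stages the ratio of the whole class lay outside the range of the stage ratios, for Prss37, Prss51, Prss52, Prss55 and Prss23os below it and for Prss53 and Prss54 above it.

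**Figure D4:**
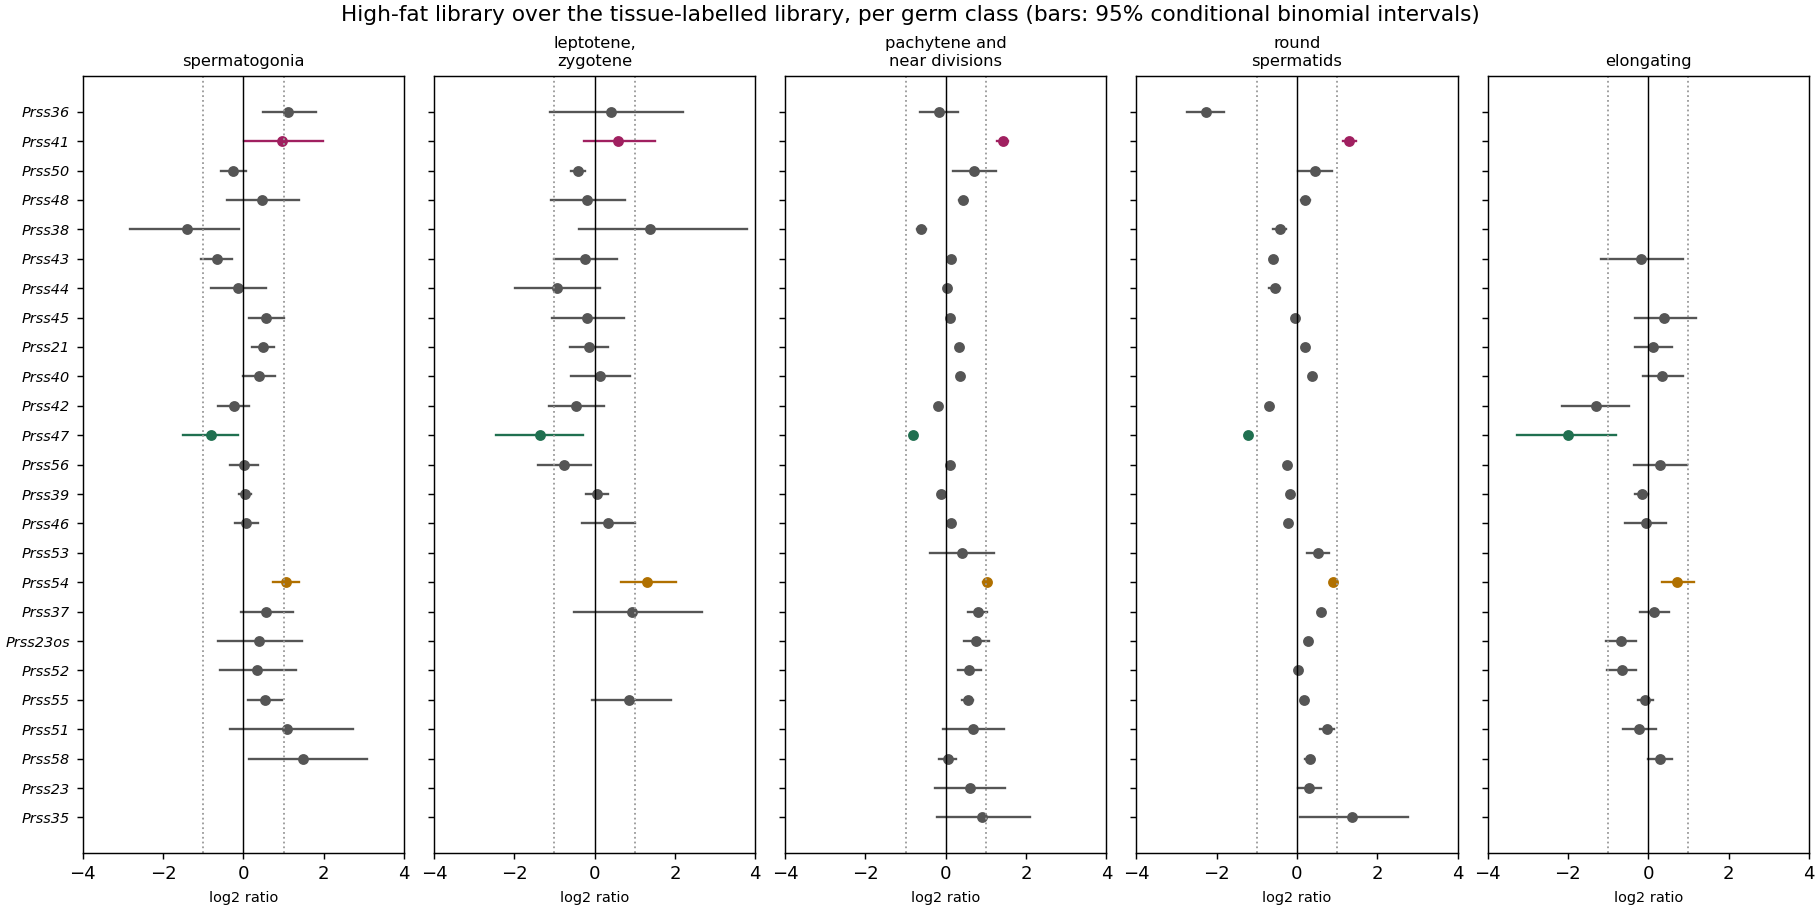
Log2 ratio of the high-fat library to the tissue-labelled library (x axis) for the 25 members (rows) in 5 germ classes (panels), with 95% conditional binomial intervals that cover counting error only and dotted lines at 2-fold. Only members with at least 20 counts in a class are drawn, and Prss41 (magenta), Prss47 (green) and Prss54 (ochre) passed 2-fold the same way in more than 1 class.

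Prss54, Prss47 and Prss41 passed 2-fold in the same direction in at least 2 germ classes. Prss41 was higher in the high-fat library, at 7.03 CPM (6.49 to 7.62) and 18.8 CPM (17.9 to 19.7) in pachytene and later spermatocytes, a ratio of 2.67 (2.43 to 2.94), and at 5.06 CPM (4.63 to 5.52) and 12.5 CPM (11.8 to 13.3) in round spermatids, a ratio of 2.47 (2.23 to 2.76). The levels of the tissue-labelled library in both classes lay below its Sertoli level of 8.89 CPM and those of the high-fat library above its 10.7 CPM. In Sertoli cells the ratio was 1.21 (0.64 to 2.34). After thinning each cell to 1000 UMIs, a UMI of Prss41 was seen in 0.822% (0.522 to 1.23) and 1.92% (1.44 to 2.52) of spermatocytes near the divisions, against 0.523% (0.143 to 1.33) and 0.726% (0.333 to 1.37) of Sertoli cells.

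Prss47 was lower in the high-fat library, with 62.8 CPM (61.1 to 64.5) and 35.4 CPM (34.2 to 36.7) in pachytene and later spermatocytes and 53.9 CPM (52.5 to 55.4) and 23.2 CPM (22.2 to 24.3) in round spermatids. The ratios were 0.565 (0.54 to 0.59) and 0.431 (0.409 to 0.454). It was also past 2-fold in leptotene and zygotene spermatocytes, 0.389 (0.184 to 0.819), and in elongating spermatids, 0.253 (0.104 to 0.577), at levels below those of Sertoli cells, where the ratio was 0.488 (0.332 to 0.712).

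Prss54 was higher in the high-fat library in its main class, round spermatids, at 235 CPM (232 to 238) and 438 CPM (433 to 442), a ratio of 1.87 (1.84 to 1.9). That value is above the ratio in each stage, 1.74 (1.68 to 1.8) in early, 1.75 (1.71 to 1.79) in middle and 1.3 (1.25 to 1.35) in late round spermatids, and the high-fat class held more of the middle round cells, where Prss54 was highest. The ratios past 2-fold were in classes where it was low: 2.08 (1.67 to 2.61) in spermatogonia, 2.48 (1.57 to 4.09) in leptotene and zygotene spermatocytes and 2.03 (1.92 to 2.15) in later spermatocytes. All of these levels lay below its Sertoli level of 68.5 and 150.4 CPM, and in Sertoli cells the ratio was 2.19 (1.8 to 2.69). In later spermatocytes the log2 ratio, 1.02, was 0.39 with the 2 libraries clustered separately and 0.11 with doublets kept, and it stayed past 2-fold in 2 of 8 other settings. Both of these settings also changed the cells of the class. With doublets kept a cluster of 1957 tissue-labelled cells went unnamed, and that library's cells near the divisions fell from 2797 to 1366. Clustered separately, tissue-labelled pachytene cells fell from 1664 to 1100, and high-fat cells near the divisions from 2650 to 1675.

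Prss36 and Prss38 passed 2-fold in opposite directions in different classes. Prss36 was higher in the high-fat library in spermatogonia, 2.18 (1.4 to 3.49), and lower in round spermatids, 0.208 (0.151 to 0.282). The round spermatid levels, 2.74 and 0.571 CPM, were both below those of Sertoli cells, 3.14 and 4.07 CPM. Only the late round level of the tissue-labelled library, given above, was higher than that of its Sertoli cells, and in early and middle round spermatids the ratios were 0.858 (0.452 to 1.57) and 0.758 (0.43 to 1.36). Prss38 was lower in spermatogonia, 0.378 (0.141 to 0.924), and higher in leptotene and zygotene spermatocytes, 2.62 (0.771 to 13.8), from 3 and 19 counts. Its Sertoli levels were 8.89 and 4.07 CPM. Both spermatogonia levels, 6.66 and 2.52 CPM, lay below them, as did the leptotene and zygotene level of the tissue-labelled library, 5.15 CPM, and not that of the high-fat library, 13.5 CPM. Neither ratio stayed past 2-fold under every setting: the log2 ratio in spermatogonia, -1.41, was -0.87 with each cell weighted equally and -0.95 with classes from marker counts, and that in leptotene and zygotene spermatocytes, 1.39, was 0.28 and 0.43. In later spermatocytes, its main class, Prss38 had a ratio of 0.655 (0.608 to 0.705). The other members past 2-fold in 1 class were Prss58 and Prss51 in spermatogonia (higher), Prss35 in round spermatids (higher), Prss42 in elongating spermatids (lower) and Prss30 in spermatocytes (lower). Prss58 in spermatogonia was 2.35 and 6.61 CPM, below its Sertoli level of 5.23 and 8.5 CPM. Prss42 was lower in the high-fat library in round spermatids too, 0.619 (0.592 to 0.647). The ratios of the late members differed by stage. Prss37 had a ratio of 1.5 (1.44 to 1.56) over all round spermatids, but 2.3 (1.78 to 2.99) in early, 9.07 (7.37 to 11.3) in middle and 2.37 (2.27 to 2.48) in late round spermatids. The early and middle ratios stand at levels below those of Sertoli cells (12 and 21.1 CPM) except in the high-fat middle round class, which included cluster 7. Prss55 had a ratio of 1.13 (1.11 to 1.16) over the class and 1.42 (1.19 to 1.69), 5.73 (5.27 to 6.24) and 1.28 (1.24 to 1.32) in the same stages. In early round spermatids its interval lay wholly above that of Sertoli cells in neither library. In middle round spermatids it did so in the high-fat library alone, whose class included cluster 7. The acrosomal pair Prss39 and Prss40 had 0.879 (0.87 to 0.889) and 1.3 (1.26 to 1.34).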

How the data were processed

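Droplet single-cell RNA sequencing of testis gave 2 libraries. The deposited values are whole-number UMI counts per gene and barcode. Per the file headers the matrices came from PISA 1.0, and the submitters' processing notes name Cell Ranger 2.1.1. For the aligner, genome build, annotation and use of strand, the entry is: not given in the sources used here.

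Barcodes under 500 UMIs or 250 genes, or above 20% mitochondrial UMIs, were removed (2 and 3). Scrublet (scanpy 1.11.5, expected rate 6%) marked 517 and 462 doublets, which were left out. Another random seed marked almost none in the high-fat library, so doublets were also kept as an alternative. Cells were clustered together on 2000 variable genes without the family and 26 partner genes (50 components, 20 neighbours, Leiden resolution 1, leidenalg 0.10.2), giving 22 clusters, 3 of them unnamed (6.41% and 13.3% of cells). Clusters were named from fixed markers, with rules for top genes (seen in 25% of cells) set after the clusters had been seen.

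Counts were summed per library and class. Ratios have exact conditional binomial intervals, and shares have Clopper-Pearson intervals, at 95%. The shares allowed where a somatic class had no UMI of Prss23 or Prss35 are not such limits. They are 3 divided by the number of cells. The ratio and its interval were checked on simulated counts with counting error only. Stages needed 50 counts in each library and ratios 20 counts in a class. Every member with 50 counts is named, with its highest class where that reached 10 CPM, and the others are listed once. Neighbouring genes came from GENCODE, promoters from RefSeq. The members, lists and rules were chosen with earlier results of these data known.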

Additional observations from a re-analysis of the deposited data

Results flagged for a closer look

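Prss36 and Prss38 lay at least 2-fold apart between the libraries in opposite directions in different germ classes. The log2 ratio of the high-fat library to the other for Prss36 was 1.12 in spermatogonia and -2.26 in round spermatids. For Prss38 it was -1.41 in spermatogonia and 1.39 in leptotene and zygotene spermatocytes. With 1 library per group the differences between classes were not tested. The Prss38 values rest on 17 and 8 counts in spermatogonia and on 3 and 19 counts in leptotene and zygotene spermatocytes, and both fell under 2-fold with each cell weighted equally (-0.87 and 0.28) and with classes from marker counts (-0.95 and 0.43). In spermatogonia Prss38 was below its Sertoli level in both libraries, and such levels are not told apart from background. Prss36 over all round spermatids was below its Sertoli level too. That level was 137% and 325% of its level over all cells kept, so it cannot mark background. The late round level of Prss36 in the tissue-labelled library, 6.57 CPM, was above its Sertoli level.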

How the results depend on the processing

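The 12 ratios past 2-fold of Prss36, Prss38, Prss41, Prss47 and Prss54 were followed over 6 to 8 other settings each, 1 of them chosen after seeing the data (cluster 14, shallow and mostly of 1 library, left out). None changed direction in the settings run. The 5 that stayed past 2-fold in each setting run were both of Prss41, those of Prss47 in round and elongating spermatids and that of Prss36 in round spermatids. Prss36 in spermatogonia was at 0.77 with marker counts and Prss47 in leptotene and zygotene spermatocytes at -0.80 with doublets kept. Prss38 and Prss54 each fell under 2-fold in every class named, under 2 to 6 settings. The counts of members highest in spermatocyte or spermatid classes stayed within 1.5 times those reported in every setting run. The median log2 ratio of the members stayed above 0 in spermatogonia, later spermatocytes and round spermatids. In leptotene and zygotene spermatocytes it went from -0.04 to 0.02 with doublets kept and to 0.06 with a minimum of 100 counts. In elongating spermatids it went from -0.07 to 0.02 with that minimum. The highest class was the same as reported for at least 20 members in each library. That of Prss39 in the high-fat library became the spermatocytes near the meiotic divisions under 3 settings, and that of Prss36 in the tissue-labelled library became leptotene and zygotene spermatocytes with each cell weighted equally. With doublets kept, that of Prss53 in the tissue-labelled library became other somatic cells. The counts of members 2-fold apart were less stable. With classes from marker counts in each cell they were 2 in spermatogonia (5 as reported), 5 in leptotene and zygotene spermatocytes (3) and 4 in elongating spermatids (2). With a minimum of 100 counts they were 2, 1 and 0 in these classes. With each library clustered on its own 9 members were 2-fold apart in round spermatids (4), and with doublets kept 1 in spermatocytes (3). These 2 settings also changed which cells were named. Unnamed cells of the tissue-labelled library rose from 852 to 2221 and 3118, and those of the high-fat library from 1617 to 1795 and 2126. Clustered on its own, the tissue-labelled library had 716 late round spermatids in place of 1951. Clustering each library on its own gave a log2 ratio of Prss36 in round spermatids of -1.41. Prss54 was at 0.79 in spermatocytes and 0.48 in spermatogonia with marker counts, and at 2.04 in leptotene and zygotene spermatocytes with cells of at least 2000 UMIs. With doublets kept no stromal or endothelial class was named, and Prss23 ranked highest in late round spermatids. Not thinned, a UMI of Prss23 was seen in 24.1% and 7.35% of somatic cells other than Sertoli cells and one of Prss35 in 7.65% and 6.51%. No paired analysis was possible because each group has 1 library. Depth limits the rare classes most: 190 and 424 leptotene and zygotene cells had 582214 and 1408308 UMIs.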

Other observations

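Among the 300 pairs of the 25 members, the 5 pairs with the most similar profiles over the 8 germ stages all joined late members. Ranked by the lower r of the 2 libraries, Prss23os and Prss55 came first (0.99 and 0.98), followed by Prss37 with Prss52, Prss37 with Prss55, Prss23os with Prss52 and Prss23os with Prss37. Prss39 with Prss40 came sixth (0.97 and 0.97). These r are descriptions over 8 stages of the same libraries. None of these 5 late pairs is a pair of neighbouring genes.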
